A study of Rattus norvegicus with 16 samples.

Results

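The baseline transcript profile of the rat dentate gyrus was described from the arrays labelled naive, which are 3 of the 16 arrays of the series. The naive group and the gene lists used below were chosen with earlier results of these data known. Each array measured total RNA from dentate gyrus on the Affymetrix RGU34A, a single-colour rat array that reports 1 signal for each probe set, a group of short probes for one transcript. Of the other 13 arrays, 3 carry the label 6 h, and 2 each carry 0, 2, 3, 12 or 24 h. They enter here only through the common scale and as a measure of spread within a group, and their levels were not compared with naive. All labels, the naive ones too, name passive avoidance trained rats, a task in which an animal learns to withhold a punished response, and naive is taken here as untrained. The labels used here give no strain, sex or age, and nothing in them says that the 3 naive replicates came from separate animals, so the spread given below may be technical.

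The dentate gyrus is the entry gate of the hippocampal circuit. Its principal cells are densely packed granule neurons, which receive cortical input and send mossy fibres to CA3. Interneurons and mossy cells lie in the hilus, new granule neurons are born from precursors in the subgranular zone throughout life, and astrocytes, oligodendrocytes, microglia and blood vessels run through all layers. The choroid plexus, an epithelium that makes cerebrospinal fluid, and the meninges lie against the hippocampal formation without being part of it.

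Signals are given as log2 of the signal after each array was brought to 1 common trimmed mean, always in the order of replicates 1, 2 and 3. The scaled values have a lowest level of 2.34, at which differences are not visible. A probe set was called above background when it exceeded the brightest bacterial control that is not added to the sample, which lay at 2.93, 3.97 and 3.25. By this rule 5273 of 8740 probe sets (60.3%) were above background on all 3 arrays, and 72.0%, 62.7% and 70.0% were so on each array alone. With a stricter level, the pooled 60th percentile of all signals, 3163 were above it on all 3. The deposited values differed by 1.27-fold in trimmed mean between the naive arrays before scaling. Signals of different probe sets also depend on how well their probes bind, so the order given here is an order of signal and not of transcript amount. Among 1565 genes with more than 1 probe set, the highest and lowest differed by a median of 1.54 on the log2 scale. Over the 907 genes with more than 1 probe set above background the median was 1.23, against a median SD between arrays of 0.28 for probe sets above background. For a gene with several probe sets the brightest is given unless another is named.

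The brightest named transcripts encoded secreted glial proteins, the respiratory chain, ribosomes, the cytoskeleton and chaperones. The 30 brightest named probe sets came from 22 genes and lay within 0.70 of each other, between mean log2 signals of 11.93 and 11.24. Of the probe sets ranked above the last of them, 18 had no gene name here, including 7 of the 10 brightest, and 6 carried several names. Apoe, the lipid carrier secreted by astrocytes, led with 11.83, 11.90 and 12.07 (mean 11.93 ± 0.12 SD, n = 3). All 3 arrays placed it among the brightest few, at ranks 10, 4 and 8 of all probe sets. COX1, the mitochondrially encoded core subunit of cytochrome c oxidase, followed with 11.88, 11.81 and 11.97, and Rps29, a protein of the small ribosomal subunit, had 11.79, 11.84 and 11.86. The protease inhibitor Cst3 (11.59, 11.64 and 12.02), the 14-3-3 protein Ywhah (11.51, 11.62 and 11.98) and the actin-binding peptide Tmsb4x (11.75, 11.79 and 11.50) came next.

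Further down the same set were the chaperone Hsp90ab1, the cytochrome oxidase subunits Cox4i1, Cox8a and COX3, the cytoplasmic actins Actg1 and Actb, and the sodium pump subunit Atp1b1. Gnas (the stimulatory G protein subunit), the lysosomal protein Psap, the matrix protein Sparc, Cpe (which trims peptide hormones), Tuba1b, Oaz2 (which restrains polyamine synthesis), the neuronal surface protein Thy1 and Dnm1, the dynamin of synaptic vesicle recycling, completed it. The order within this set is not resolved. None of its 29 pairs of neighbours lay further apart than the sum of their SDs, and the median SD was 0.18. Of the brightest 100 probe sets of each array, 75 were common to all 3 arrays, and 127 were among the brightest 100 of at least 1.

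**Figure D1:**
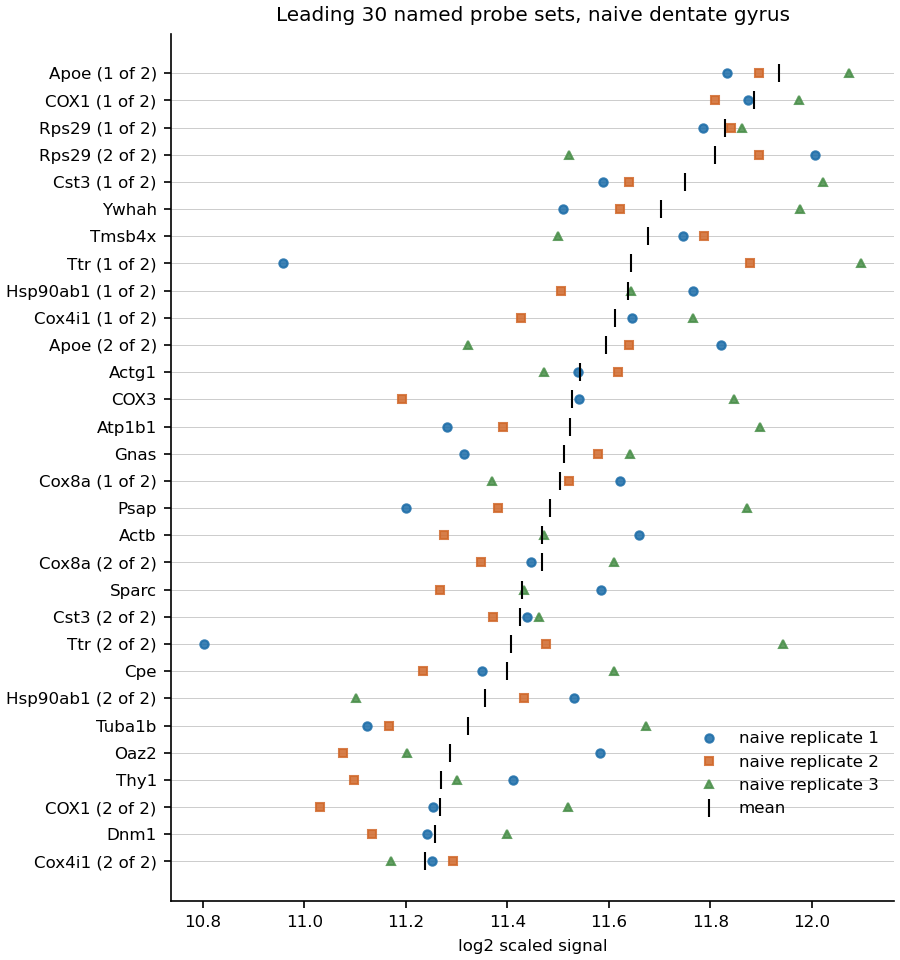
The 30 named probe sets with the highest mean signal, with log2 scaled signal on the horizontal axis, 1 symbol per naive array and a bar at the mean of the 3 arrays. Genes with 2 probe sets appear once for each, and both Ttr probe sets are lowest on replicate 1 (10.96 and 10.80), apart from the other arrays.

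Ttr, which carries thyroid hormone and is the hallmark transcript of choroid plexus epithelium, was the least even of the bright genes. Its signal was 10.96, 11.88 and 12.10, with an SD of 0.60, the largest among the 30. It ranked 83 on replicate 1, against 6 and 7 on replicates 2 and 3, and its second probe set gave 10.80, 11.48 and 11.94. The same array was the lowest on both probe sets. Within the other 6 groups the SD of the brighter probe set was 1.91, above its 0.60 here, so uneven Ttr was not particular to the naive arrays.

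The cell types expected in the tissue were placed by marker lists, each gene being ranked by its mean signal among 4736 named genes. By construction 474 of all genes (10%) are in the top 10% of that order, and 67.7% of all genes were above background on all 3 arrays. In such bulk tissue a lower signal can come from fewer cells of a type or from less RNA per cell, which cannot be told apart. No list was tested, and the counts are a description.

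**Figure D2:**
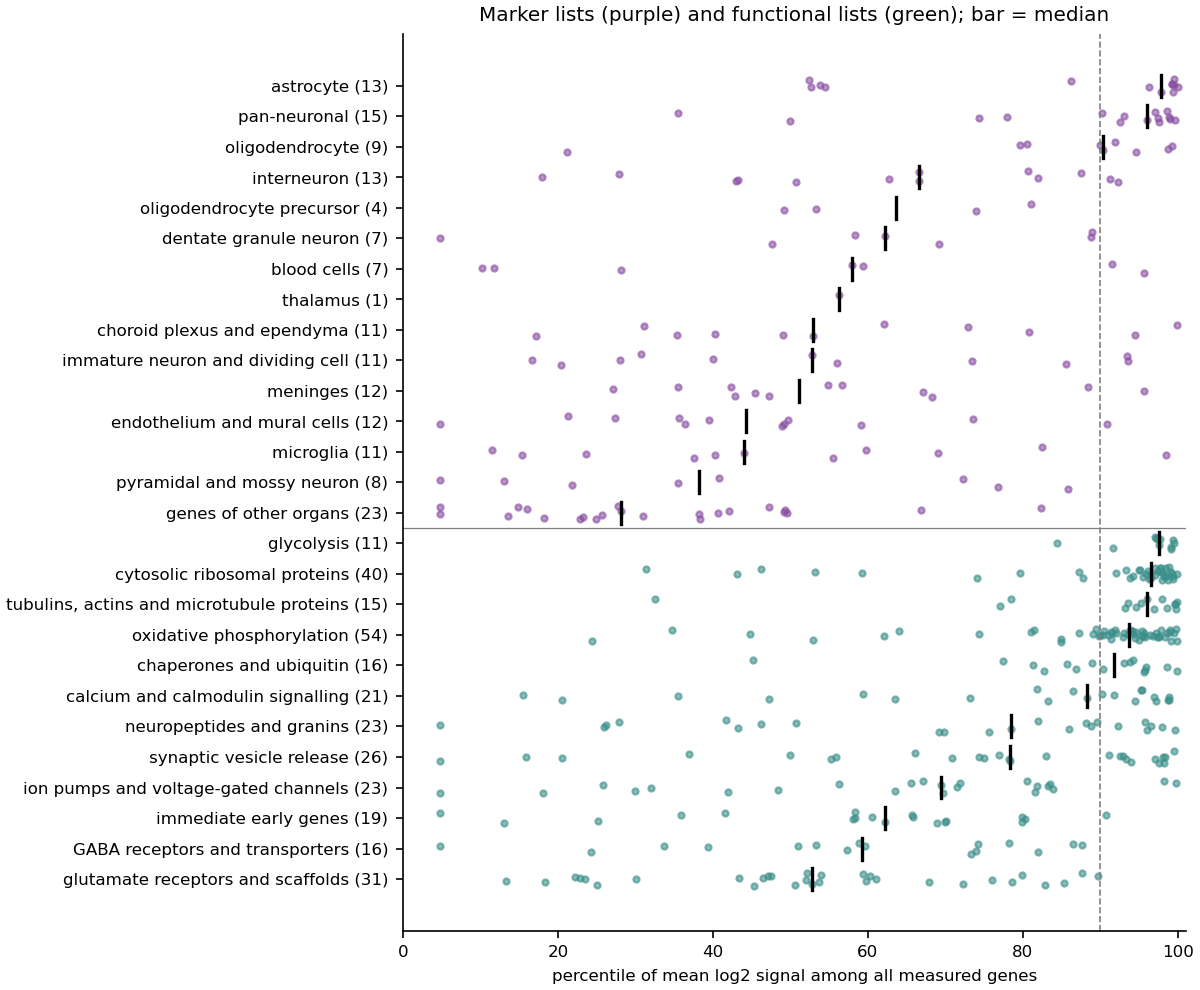
Percentile of each list gene's mean log2 signal among all 4736 measured genes, 1 point per gene, with a black bar at the list's median, marker lists in purple above the line and functional lists in green below it. The number of measured genes stands beside each list, and the dashed line marks the top 10%. The medians of the astrocyte, pan-neuronal, glycolysis, ribosomal, oxidative phosphorylation, cytoskeletal, chaperone and oligodendrocyte lists lie past it, and the genes of other organs have the lowest median (28.1).

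Most pan-neuronal transcripts measured were bright. Of 15 pan-neuronal genes measured, 11 were in the top 10% and 14 above background. Thy1 had 11.41, 11.10 and 11.30, Ncdn (neurochondrin, a neuronal protein of dendrites) 10.79, 10.89 and 10.93, and Nrgn (neurogranin, a postsynaptic calmodulin-binding protein) 10.74, 10.65 and 10.82. The presynaptic fusion protein Snap25 had a mean of 10.18 ± 0.16 (SD, n = 3), and the vesicle protein Syp 9.95, 10.08 and 10.10. The widest of these 5 was Thy1, with a range of 0.31. The 4 genes outside the top 10% were the neurofilament Nefh (7.54, 7.18 and 7.25), the synuclein Sncb (7.66, 6.79 and 6.62), the vesicle calcium sensor Syt1 (5.05, 5.27 and 5.59) and Camk2a. The brighter probe set of Camk2a, the abundant kinase of excitatory synapses, read 5.03, 4.54 and 3.24 and was not above background on replicate 3. Its second probe set read 4.28, 3.52 and the lowest level. The array gave no strong signal for Camk2a on either.

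Granule neuron markers ran from the lowest level to high signal, with Calb1 and Pdyn the brightest. The list held 7 measured genes, none in the top 10% and 6 above background. Prox1, the transcription factor that defines granule neurons, was not among the named probe sets used here. Calb1, the calcium-binding protein calbindin of mature granule neurons, had 8.17, 8.42 and 8.73 and lay at the 88.9th percentile. Pdyn, the precursor of the dynorphin peptides carried by mossy fibres, had 8.41, 8.22 and 8.61 at the 88.7th percentile. Calb1 had a range of 0.56 and Pdyn of 0.39. The opioid precursor Penk was nearly level at 6.58, 6.66 and 6.54. The neurotrophin Bdnf read 6.33, 6.49 and 5.48 on the brightest of its 7 probe sets, Neurod2, a transcription factor of excitatory neurons, 5.72, 5.59 and 6.30, and Lct 5.24, 5.17 and 5.09. Tdo2 was at the lowest level on all 3 arrays.

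Markers of other excitatory neurons were also measured. Of 8 genes chosen for pyramidal and mossy neurons, none was in the top 10% and 5 were above background. Bok (8.41, 8.05 and 7.75), the G protein regulator Rgs14 of CA2 neurons (7.09, 6.80 and 7.78) and the kainate receptor subunit Grik4 of CA3 neurons (6.85, 6.96 and 6.67) were the brightest. Calcrl read 4.19, 4.88 and 4.86 and Drd2, a receptor of mossy cells, 2.43, 2.77 and the lowest level, below background on each array. Among thalamic markers only Prkcd was measured, with 5.41, 5.83 and 5.93. It does not mark the thalamus alone, so the list says little.

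Interneuron transcripts were detected, with 11 of 13 genes above background and 2 in the top 10% (1 without replicate 3). Somatostatin (Sst), made by hilar interneurons, had 8.60, 8.61 and 9.60, and Gad1, the main enzyme of GABA synthesis, 8.49, 8.08 and 9.78. Both were highest on replicate 3, Gad1 by more than 1 over each other array, while a second Sst probe set was level at 7.77, 7.75 and 7.83. The vesicular GABA transporter Slc32a1 (8.11, 8.38 and 8.32), Npy (7.56, 7.52 and 7.98), Reln (7.51, 7.56 and 7.61) and Pvalb (6.49, 6.32 and 6.42) differed less between arrays. The median deviation of the 13 genes from their own means was -0.05, -0.09 and 0.05, against -0.01, 0.02 and 0.00 over all genes. Gad2 read 5.10, 4.57 and 4.87, well under Gad1 in signal, and Vip was above background on 2 arrays only.

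The dentate gyrus keeps dividing precursors, and genes chosen for dividing and immature cells ran from below background to high signal. Of 11 measured, 8 were above background (72.7% against 67.7% of all genes) and 2 in the top 10% (18.2% against 10% of all genes). These 2 were Stmn1, a microtubule-destabilising protein also expressed in mature neurons (8.94, 9.01 and 9.50), and the cyclin Ccnd2 (9.35, 9.59 and 8.50). Pcna, a DNA replication clamp, had 8.25, 7.90 and 7.94, and Neurod1, a transcription factor of newborn granule neurons, 7.00, 6.79 and 7.07. Of genes tied more closely to mitosis, the cyclin Ccnb1 read 5.63, 5.35 and 5.44, Top2a 4.44, 4.92 and 4.43, and Cdk1 2.52, 2.60 and 3.09, below background on every array. Cdc20 read 3.14, 4.44 and 3.33. Sox11 (3.94, 3.93 and 3.73) was above background on 2 arrays only, and Tyms (2.75, 3.60 and 2.70) on none.

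Most astrocyte genes were bright as well. All 13 measured genes were above background and 8 were in the top 10%, with a median percentile of 97.8 against 96.1 for the pan-neuronal list. After Apoe came the glycolytic enzyme Aldoc (11.08, 11.30 and 11.29), Sparcl1 (11.16, 11.01 and 11.43), the secreted chaperone Clu (11.30, 11.14 and 11.06), S100b (11.03, 10.89 and 11.23) and glutamine synthetase, Glul (10.93, 10.90 and 11.03). The other S100b probe set read only 3.75, 3.06 and 4.48. The glutamate transporter Slc1a3 had 9.62, 9.73 and 10.18. The other main astrocytic glutamate transporter, Slc1a2, read only 5.36, 5.80 and 5.46 on the brightest of its 4 probe sets, 1 of which was at the lowest level on all arrays. The water channel Aqp4 was uneven, at 5.14, 4.59 and 6.66. Gja1 (5.08, 5.41 and 5.87) and Slc4a4 (5.50, 5.83 and 5.43) lay at the 52.4th and 54.5th percentiles.

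Myelin transcripts were also bright. Of 9 oligodendrocyte genes 8 were above background and 5 in the top 10%. Myelin basic protein, Mbp, had 11.13, 10.58 and 11.33, Mobp 10.73, 10.59 and 10.80, Sirt2 9.37, 9.37 and 9.38, Mal 8.77, 8.69 and 9.20 and Cnp 8.91, 8.46 and 8.56. The median deviation of the 9 genes from their own means was 0.05, -0.14 and 0.08, against -0.01, 0.02 and 0.00 over all genes. The 4 precursor genes were all above background and none was in the top 10%, with Pdgfra at 7.56, 7.93 and 7.32 and Ptprz1 at 6.82, 6.73 and 7.44. The other 3 probe sets of Pdgfra had means of 2.37, 3.06 and 2.34, at or near the lowest level.

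Microglia and vessels each had a single gene in the top 10%. Of 11 microglial genes 8 were above background, and the lysosomal protease Ctss was in the top 10%, with 10.55, 10.53 and 10.54. Complement C1qb had 7.86, 7.71 and 7.63 and Cx3cr1, the fractalkine receptor, 5.12, 5.01 and 4.56, while Csf1r was below background on all arrays. Of 12 genes of endothelium and mural cells 10 were above background and 1 in the top 10%, the glucose transporter Slc2a1 (8.98, 8.28 and 8.93). The smooth muscle actin Acta2 ran from 5.09 and 5.62 to 7.04 on replicate 3. Of 7 blood genes 4 were above background and 2 in the top 10%. Beta-globin, a mark of red cells left in the tissue, was bright and nearly level, with Hbb at 9.43, 9.86 and 9.57. The neutrophil genes S100a8 and S100a9 were below background on all arrays.

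Genes of organs outside the brain gave a floor for reading these lists. Of 23 measured, none was in the top 10%, 10 were above background (43.5% against 67.7% of all genes) and the median percentile was 28.1. Pituitary Prl and pancreatic Cela1 were at the lowest level on all 3 arrays, and liver Alb read 4.57, 3.95 and 5.37. The liver enzyme Cyp2e1 read 5.24, 5.54 and 5.02, above background on all 3, so signals near 5 were also seen for genes of other organs. The brightest, insulin Ins2, read 7.61, 8.06 and 7.49 on 1 probe set, while its other 2 probe sets had mean signals of 2.35 and 2.47, at or next to the lowest level. The next, insulin Ins1, read 6.56, 5.74 and 6.97, above background on all 3, with means of 4.09 and 3.98 on its other 2 probe sets. A single probe set could thus read as high as these values for a gene of another organ.

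**Figure D3:**
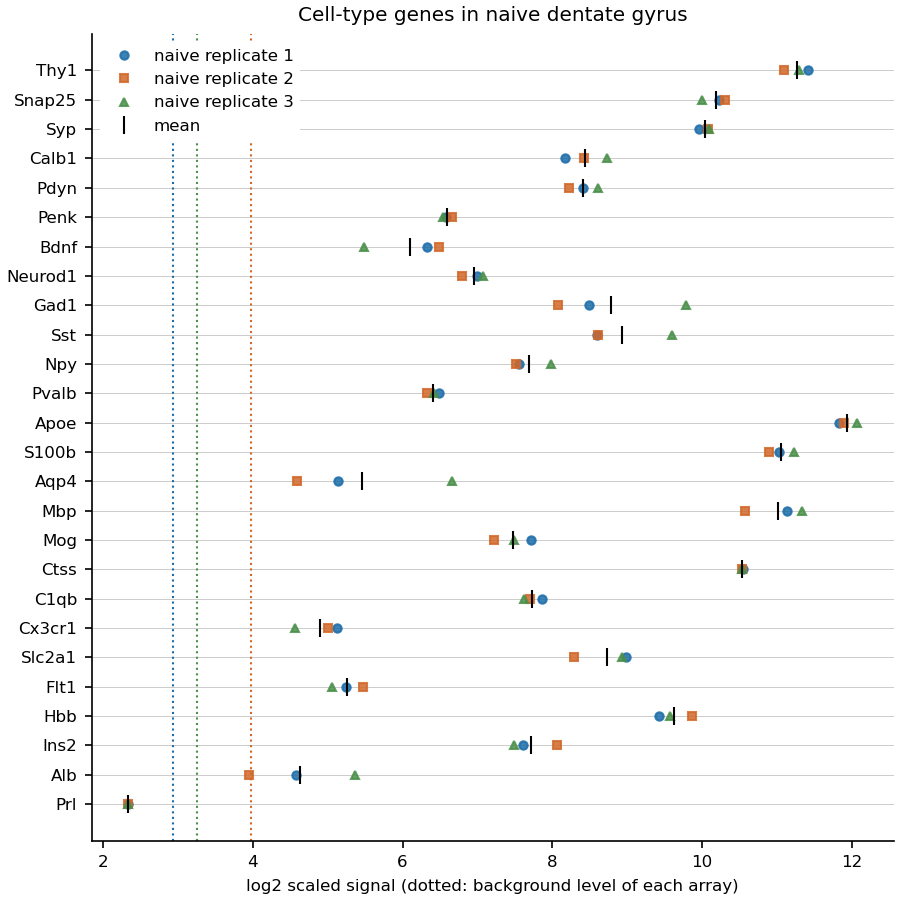
Log2 scaled signal of 26 cell-type genes on the 3 naive arrays, with a bar at the mean and dotted lines at each array's background level. Genes of neurons, astrocytes and oligodendrocytes such as Thy1, Apoe and Mbp lie above 10, Calb1 and Pdyn between 8 and 9, and Prl at the lowest level.

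Of the lists described, the choroid plexus genes differed most between the naive arrays. Of 11 genes measured, 8 were above background and 2, Ttr and Enpp2, in the top 10%. Replicate 1 was the lowest array for 10 of the 11, against 34.5% of all genes above background. The 2 sets differ, since Aqp1, Htr2c and Foxj1 of the 11 were not above background on all 3 arrays. Enpp2, the secreted lysophospholipase autotaxin, had 8.04, 10.10 and 9.91, a range of 4.17-fold. The insulin-like growth factor binding protein Igfbp2 had 5.96, 8.69 and 8.10 (6.66-fold), and the secreted BMP and Wnt modulator Sostdc1 4.87, 8.01 and 7.78 (8.85-fold). In each of these, replicates 2 and 3 lay closer to each other than to replicate 1.

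Most of the dimmer members were also lowest on replicate 1. The prolactin receptor Prlr had 3.86, 6.33 and 5.56, Cox8b, a cytochrome oxidase subunit also on the respiratory list, 4.34, 6.41 and 5.71, and the anion exchanger Slc4a2 5.48, 6.17 and 6.62. The water channel Aqp1 was at the lowest level on replicate 1 and read 5.50 and 4.93 on the others, so its range of 8.94-fold is a lower bound. The serotonin receptor Htr2c read 2.54, 4.50 and 4.68. The exception was Kl (klotho), at 4.26, 5.45 and 4.13, lowest on replicate 3. The ciliary transcription factor Foxj1, of ependyma, was below background on every array (2.34, 2.92 and 3.06).

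All 8 list genes above background had a range over 1 on the log2 scale, that is over 2-fold, against 12.4% of all genes above background. Taken over the list, the median deviation from each gene's own mean was -1.31, 0.84 and 0.52, while over all genes it was -0.01, 0.02 and 0.00. The summed signal of the list ran from 11.26 to 12.58 on the log2 scale. Of the 22 probe sets of these 11 genes, 20 were lowest on replicate 1, alone or tied. The gap between the highest and the lowest of the 3 median deviations was 2.15, and without replicate 1 it was 0.24. Dividing the signal at the 3' end of a control transcript by that at its 5' end, a sign of RNA length, gave 1.70, 1.49 and 1.70 for actin, 1.12, 1.24 and 1.28 for Gapdh and 3.24, 4.03 and 2.47 for hexokinase. Replicate 1 had the lowest Gapdh ratio, equalled replicate 3 for actin and lay between the others for hexokinase. The hexokinase 5' signal on replicate 2 was 3.34, below that array's background of 3.97, so the ratio there is uncertain. The part of these measures in the difference was not tested.

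Meningeal genes leaned the same way, less evenly. Replicate 1 was the lowest for 8 of 12 genes, against 34.5% of all genes above background, though Dcn, Lum and Slc6a13 of the 12 were not above background throughout. The median deviations were -0.37, 0.40 and 0.32. Ptgds, the prostaglandin D synthase of the leptomeninges and choroid plexus, had 8.77, 10.38 and 9.69, and Igf2, a growth factor of the same tissues, 6.99, 9.27 and 8.90. The fibrillar collagens Col1a1 (4.74, 6.19 and 6.33), Col1a2 (4.12, 5.98 and 5.31) and Col3a1 (4.12, 5.25 and 5.10) were lowest there too. Decorin, Dcn, was lowest on replicate 2 by its brightest probe set (5.35, 3.46 and 6.21) and on replicate 1 by the next (3.83, 5.26 and 4.58), so its order depends on the probe set. Igf2 likewise had a second probe set, at 6.57, 6.70 and 6.13, that did not place replicate 1 lowest. Apart from the single thalamic gene, whose deviation on replicate 1 was -0.31, the next largest median deviation of any list was 0.25, for pumps and channels on replicate 3.

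**Figure D4:**
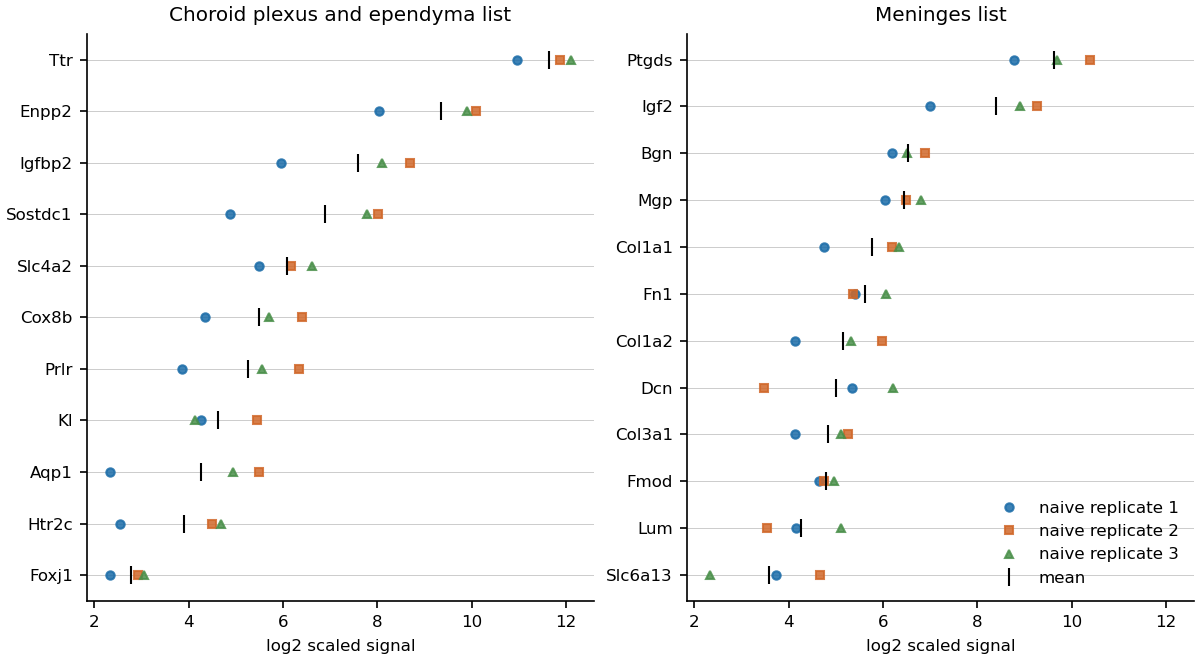
Log2 scaled signal of the 11 measured choroid plexus and ependyma genes (left) and the 12 measured meningeal genes (right), 1 symbol per naive array and a bar at the mean. Replicate 1 is the lowest for 10 of the 11 genes on the left and 8 of the 12 on the right.

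Upstream sequences are given for 4 genes, the choroid plexus genes Aqp1 and Igfbp2 and the meningeal Ptgds, which were lowest on replicate 1 together, and Pdyn, the granule neuron gene that was level. They are the 120 bases before the RefSeq start on GRCr8, read 5′ to 3′ on the gene's strand, with any TATAAA (the TATA box core, searched as TATAAA or its reverse TTTATA, with no other motif) in capitals. They show what these promoters look like and do not bear on the signals.
Aqp1, chr4:85812664-85812783, plus strand: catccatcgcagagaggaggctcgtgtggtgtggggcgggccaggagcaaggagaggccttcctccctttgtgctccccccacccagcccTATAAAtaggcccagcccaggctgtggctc
Igfbp2, chr9:81864691-81864810, plus strand: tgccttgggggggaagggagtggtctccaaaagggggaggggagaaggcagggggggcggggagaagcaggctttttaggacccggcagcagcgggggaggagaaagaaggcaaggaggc
Ptgds, chr3:28682979-28683098, minus strand: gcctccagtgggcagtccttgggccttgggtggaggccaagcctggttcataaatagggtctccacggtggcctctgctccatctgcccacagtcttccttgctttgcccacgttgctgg
Pdyn, chr3:137366504-137366623, minus strand: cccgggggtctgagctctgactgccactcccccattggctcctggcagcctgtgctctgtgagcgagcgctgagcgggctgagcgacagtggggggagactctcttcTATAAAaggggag
The match begins 30 bases before the start in Aqp1 and 13 before it in Pdyn, and the other two windows hold none. Of all 33469 promoter entries, 6.66% hold the motif in the same 120 bases on either strand. Of the 3879 measured genes with an entry 7.43% do, and of the 405 of these in the top 10% of signal 5.43% do.

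Most genes of basic cell metabolism were bright. Of 40 cytosolic ribosomal protein genes, 31 were in the top 10% and all 40 above background. The large-subunit proteins Rpl27a (11.35, 11.08 and 10.95) and Rpl23 (11.00, 10.97 and 11.27) and the small-subunit Rps16 (10.98, 10.89 and 10.93) followed Rps29. The dimmest was Rpl5, at 3.80, 4.02 and 3.93, and signals of this family are uncertain where near-identical copies share probes. Of 54 nuclear genes of oxidative phosphorylation, 39 were in the top 10% and 52 above background. Cox4i1 had 11.64, 11.43 and 11.76, the ATP synthase subunit Atp5f1b 10.88, 10.89 and 10.80, and the complex III subunit Uqcr11 10.94, 11.07 and 10.78. These genes leaned slightly towards replicate 1, with median deviations of 0.16, 0.01 and -0.14, against -0.01, 0.02 and 0.00 over all genes. Of 11 glycolytic genes 10 were in the top 10%, among them Pgam1 (11.17, 11.08 and 11.08), Eno1 (10.86, 10.90 and 10.97) and Pkm (10.83, 10.82 and 11.05). Among genes above background, 12.4% of all had a range over 1, against none of the 11 glycolytic, 2 of 40 ribosomal and 3 of 52 respiratory genes. Among these were the ATP synthase subunit Atp5pd (7.34, 9.24 and 9.35) and the complex I subunit Ndufb6 (9.83, 8.22 and 9.41).

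Cytoskeletal and protein-handling genes followed. Of 15 genes of tubulins, actins and microtubule proteins 12 were in the top 10%. Tubb5 had 10.58, 10.80 and 10.44, the axonal protein Mapt (tau) 10.36, 10.25 and 9.29, and Map1a 9.23, 9.41 and 9.92. Outside it were Stmn4 (7.32, 7.14 and 7.62), Marcks (7.02, 7.09 and 7.67) and Map1b. Map1b ran from 5.78 through 3.96 to the lowest level and alone was not above background on all 3 arrays. Of 16 chaperone and ubiquitin genes 9 were in the top 10% and all were above background. The endoplasmic chaperone Hspa5 had 9.49, 9.06 and 9.25, and the stress-inducible Hspa1a was the dimmest, at 4.90, 4.59 and 5.48.

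Calcium signalling and vesicle release, the machinery of synaptic transmission, ranked high. Of 21 calcium and calmodulin genes 10 were in the top 10% and 18 above background. Beside Nrgn, the hippocampal calcium sensor Hpca had 10.61, 10.96 and 10.58, calmodulin Calm2 10.53, 10.61 and 10.89, the calcineurin subunit Ppp3ca 10.17, 10.17 and 9.89, and Camk2b 10.04, 10.42 and 9.52. Of 26 vesicle release genes 11 were in the top 10% and 22 above background, led by Dnm1 (11.24, 11.13 and 11.40), Sv2b (10.41, 10.33 and 10.71) and Vamp2 (10.14, 10.13 and 10.74). The vesicular glutamate transporter Slc17a7, which granule neurons are known to use, was at the lowest level on all 3 arrays on its only probe set. Its reading and that of Camk2a come from the probe sets of this array and are not a statement that the genes are silent.

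Few receptors and channels were in the top 10%. None of 31 genes of glutamate receptors and scaffolds was in the top 10% (1 without replicate 2 or without replicate 3) and 24 were above background. The brightest were the kainate subunit Grik5 (9.04, 8.34 and 8.27), the metabotropic receptor Grm3 (8.41, 8.32 and 8.13) and the AMPA subunits Gria2 (7.71, 7.85 and 8.45) and Gria1 (7.54, 8.03 and 7.72). The scaffolds Homer1 (7.43, 7.57 and 7.50) and Dlg4, or PSD-95 (7.66, 6.95 and 7.52), followed, with the NMDA subunits Grin2c (7.47, 7.04 and 6.97), Grin2b (6.19, 6.06 and 5.85), Grin2a (6.20, 6.00 and 5.67) and Grin1 (5.98, 4.81 and 5.64). Of 16 GABA genes none was in the top 10% and 14 were above background. Gabrb2 had 7.89, 7.89 and 9.07, Gabra5 7.69, 7.07 and 8.28, and Gabrd, the extrasynaptic subunit of granule neurons, 7.03, 7.17 and 6.85. Of 23 pumps and voltage-gated channels 2 were in the top 10%, both of them pumps, Atp1b1 (11.28, 11.39 and 11.90) and the calcium pump Atp2a2 (10.25, 10.09 and 10.99). The brightest channels were Kcna1 (7.96, 8.08 and 7.58) and Scn2a (7.90, 8.12 and 7.47).

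Immediate early genes, which neurons switch on briefly after activity, had a measurable signal on the naive arrays. Of 19 measured 16 were above background (84.2% against 67.7% of all genes) and 1 was in the top 10% (none without replicate 3). Egr1 was the brightest, with 8.77, 8.41 and 8.98. Jun had 7.93, 7.09 and 7.58, Arc, a synaptic protein made from dendritic mRNA, 7.25, 7.60 and 7.64, Nr4a3 6.30, 7.10 and 6.57, and Fos 6.61, 6.70 and 6.44. Arc had a range of 0.39 and Fos of 0.26. Egr1 had 4 probe sets, the others with means of 6.47, 5.17 and 4.88. Of the 3 Fos probe sets 1 was at the lowest level on all arrays and another read 3.15, 4.51 and 4.24. Egr3 was at the lowest level throughout.

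Neuropeptide genes spread over the whole range, with 19 of 23 above background and 6 in the top 10%. The processing enzymes and granins led, with Cpe at 11.35, 11.23 and 11.61, the chaperone Scg5 at 10.40, 10.30 and 10.20, the amidating enzyme Pam at 9.83, 10.19 and 9.66, Scg3 at 9.77, 9.46 and 10.02 and chromogranin Chgb at 9.64, 9.45 and 9.99. Of the peptides, Cck (8.49, 8.21 and 8.37) came after Sst and Pdyn. Pomc, a pituitary and hypothalamic precursor, was above background on 2 arrays (2.60, 4.44 and 3.36), and galanin, Gal, was at the lowest level on all 3.

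The 3 arrays agreed closely over all 8740 probe sets. Pearson's r of the log2 signals was 0.971 between replicates 1 and 2, 0.967 between 1 and 3 and 0.964 between 2 and 3, and Spearman's rho was 0.959, 0.954 and 0.952. Over the 5273 probe sets above background r was lower, at 0.966, 0.954 and 0.952, and rho was 0.957, 0.945 and 0.939. These are correlations across probe sets, which are not independent and share their probes between arrays, so no p is given. Among the 8 pairs of arrays within the other groups r ran from 0.944 to 0.977. The share of probe sets that differed by over 1 was 8.65%, 9.45% and 10.7% in the same order of pairs.

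The spread fell as the signal rose. Among probe sets above background the median SD was 0.37 in the dimmest of 5 equal classes and 0.23 in the brightest, and the share with a range over 1 fell from 23.4% to 7.20%. In all, 725 of 5273 probe sets (13.7%) had a range over 1, and between the 2 arrays left without replicate 1, 2 or 3 the number was 396, 408 and 301. Of the 725, replicate 1 was lowest for 301, replicate 2 for 182 and replicate 3 for 242. Replicate 1 was highest for 141, against 309 and 275. Replicate 1 lay further from both other arrays than they did from each other as the lowest for 158 and as the highest for 36. For replicate 2 these counts were 78 and 127, and for replicate 3 they were 165 and 161. Hybridisation controls added in fixed amounts were lowest on replicate 2 for all 4 transcripts after scaling, with BioB at 6.19, 5.46 and 6.75, BioC at 7.65, 6.80 and 7.97, BioD at 8.62, 8.04 and 9.36 and Cre at 10.72, 9.52 and 11.15. Of 15 control probe sets of the reverse strand, 5 were above background on all 3 arrays.

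**Figure D5:**
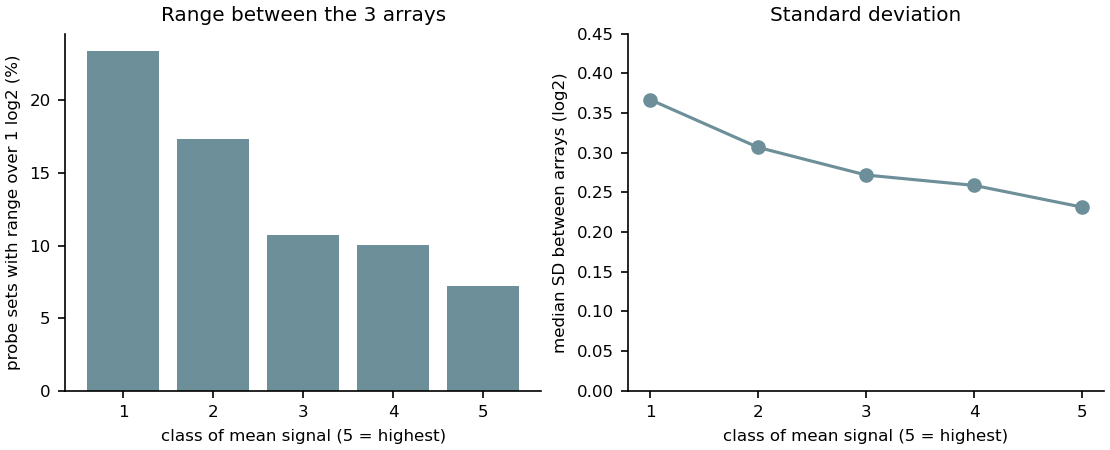
Probe sets above background on all 3 naive arrays, in 5 classes of 1054 or 1055 by mean signal (5 the brightest). The bars give the percentage with a range over 1 on the log2 scale between the 3 arrays, from 23.4% to 7.20%, and the line gives the median SD, from 0.37 to 0.23.

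The 25 named probe sets above background with the largest range differed by 2.21 to 3.47 on the log2 scale. Of these 18 were lowest on replicate 1, and 7 belonged to the choroid plexus or meningeal lists, namely Slc4a2, Enpp2, Sostdc1, Igfbp2, Prlr, Fmod and Igf2. For Slc4a2, Enpp2 and Fmod this was the dimmer of 2 probe sets, and the brighter one of Fmod had a range of only 0.32 (4.65, 4.74 and 4.97, against 3.21, 5.76 and 4.77). The widest was Scgb1c1, a secretoglobin, at 4.10, 7.58 and 6.64. Several others on no list were also lowest on replicate 1. Gas7 read 6.54, 8.88 and 9.30, the peptidase Ace 5.40, 7.84 and 7.18, the organic anion transporter Slco1a5 3.51, 5.87 and 5.30, the lipid enzyme Cdipt 6.62, 8.95 and 8.10 and Krt18, an epithelial keratin, 3.00, 5.27 and 4.14. A smaller number ran otherwise. The desaturase Scd2 was highest on replicate 1 (9.41, 7.02 and 8.24), as was Renbp (5.82, 4.86 and 3.38), and Hs6st1 was high on replicate 3 alone (4.99, 4.90 and 7.66).

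The choice by range sets these values high, so they are a description. The same 25 probe sets had a median SD within the other 6 groups of 0.60, against 0.33 for all probe sets above background, a measure that the choice did not use. It was low for some, such as Cdipt at 0.17 and Ace at 0.23, and high for others, such as Plpp2 at 1.34.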

How the data were processed

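Each array came as 1 deposited linear intensity value per probe set. How the authors computed these intensity values (software, background subtraction, any scaling) is not given in the sources used here. No depth in the sense of counts applies, and the 3 arrays limit the precision. Among 8799 probe sets, 59 were controls. All 16 arrays were scaled to 1 trimmed mean over the other 8740 (2% cut at each end, target 105.3; 33.3 to 170.3 before scaling). Signals below the pooled 20th percentile (5.05) were raised to that level before log2. Background was the highest scaled signal of the Dap, Lys, Phe, Thr and Trp control probe sets on the same array. The platform annotation gave 7006 probe sets 1 symbol, 308 several and 1426 none here, and 6994 of its symbols were brought up to date through the gene identifier. The named ones covered 4736 genes. A gene was given by its brightest probe set. Of 219 list genes with more than 1, 157 had probe sets differing by over 1 on the log2 scale.

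The naive group, 15 marker lists and 12 functional lists were chosen with earlier results of these data known. Lists were described by counts beside the same share over all genes, with no test. Named were the 30 brightest probe sets with 1 symbol, the 25 with the largest range among those above background, the controls and any list member. Promoter sequences are from RefSeq. Python 3.11.15 with numpy 2.4.6 and pandas 2.3.3 was used, and the steps were tested on simulated data.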

Additional observations from a re-analysis of the deposited data

How the results depend on the processing

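Scaling to the median, quantile normalization, a floor at the pooled 10th percentile, the median over arrays, the mean over the probe sets of a gene, a background at the pooled 60th percentile and leaving out each naive array were tried where they apply. Median scaling and quantile normalization moved the median of all probe sets by -0.09 and -0.08, kept all of the 30 brightest named probe sets, and left each count of list genes within 1.5 times. With the lower floor the smallest correlation between arrays was 0.957. With the higher background 3163 probe sets were above it and 252 had a range over 1. Of 27 counts of list genes above background, 10 fell by over 1.5 times. The endothelial, precursor and other-organ counts fell to 2, and the choroid plexus, microglial and pyramidal counts to 3. The meningeal and dividing cell counts fell to 4, the glutamate receptor count to 13 and the thalamic count to 0. With the mean over probe sets Egr1 and Slc2a1 left the top 10%, so that the immediate early and endothelial counts were 0, the granule neuron count was 1 and the glutamate receptor count 2. Under the same setting 5 microglial genes and 6 genes of other organs were above background. Leaving out 1 array gave 26 to 29 of the 30 brightest probe sets, 5341 to 5819 above background, 301 to 408 with a range over 1 (2 arrays have a smaller range by construction), 33 to 36 marker and 130 to 132 functional genes in the top 10%, and a smallest correlation of 0.964 to 0.971. The gap between the highest and lowest median deviation of the choroid plexus list was 2.15, and 2.00 to 2.15 under the scalings, the floor and the mean over probe sets. It was 0.24 to 2.06 with 1 array left out. The 0.24 is without replicate 1, so that gap rests on replicate 1. No paired analysis was possible because a single group was described and no groups were compared.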
